A study of Mus musculus with 20 samples.

Results

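Creld1 and 9 genes of the calcineurin-NFAT pathway were followed across the hearts of Creld1 knockout and wild-type mice. The 10 genes were taken by symbol from a deposited table of 26440 genes. They are Creld1, the calcineurin subunit genes Ppp3ca, Ppp3cb and Ppp3r1, the NFAT transcription factor genes Nfatc1, Nfatc2, Nfatc3 and Nfatc4, and the calcineurin regulator genes Rcan1 and Rcan2. Each was listed once, and all 10 passed the filter on low values that left 18125 genes for testing.

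The mice were C57BL/6N, and the knockouts carried the genotype labelled MyHC-Creld1 KO. The name stands for a loss of Creld1 meant to be restricted to heart muscle. MyHC stands for myosin heavy chain, whose promoter drives such deletions. At E13.5 (an embryonic day), whole hearts of 4 knockout and 4 wild-type embryos gave 8 libraries. At postnatal day 3 (P3), atria and ventricles of 3 knockout and 3 wild-type pups gave 12 libraries, and each pup is labelled as the source of both its tissues. A knockout and a wild-type library with the same replicate number shared a litter. At E13.5 replicates 2 and 3 came from the same litter, so the 4 pairs there are not 4 separate litters. Such a driver is meant to act in heart muscle cells and to leave the gene in endothelial, endocardial, fibroblast and other cells. Which cells of these hearts lost Creld1 was not tested. Which exons were removed is not given in the sources used here.

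Calcineurin is a phosphatase that calcium and calmodulin switch on. It is built from a catalytic A subunit and a regulatory B subunit. It removes phosphate from NFAT proteins in the cytoplasm, and these then enter the nucleus and act on their target genes together with partners such as GATA4 and MEF2. In the heart the pathway is known for its part in valve formation from the endocardium and in the growth response of muscle cells to load. Creld1 encodes a membrane protein rich in cysteines that has been tied to calcineurin signalling during valve development.

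Levels are given as the normalized signal of the deposited table, a linear scale on which 1 read was worth 0.562 to 2.21 units depending on the library. Estimated totals were 5138352 to 20669361 reads per library. Differences are in log2(signal + 1) and are knockout minus wild-type, P3 minus E13.5, or ventricles minus atria. A gene was called where limma's Benjamini-Hochberg adjusted p over all 18125 genes was under 0.05. Several libraries stood apart. The wild-type libraries of pup 2 held Xist at 2876 in atria and 74.9 in ventricles, although both are labelled as the same pup. The Y-linked gene Ddx3y was 1.83 in that atrial library and 465 in the ventricular one. Tests that treat these 2 libraries as 1 pup rest on the label. The atrial library of wild-type pup 2 also held the ventricular light chain Myl2 at 9242, where the other atria held 21.7 to 97.2. The sex of the animals is not given in the labels. At E13.5 Xist, the RNA of the inactive X chromosome, exceeded 1000 in 3 of 4 wild-type hearts but in 1 of 4 knockout hearts. The 2 members of all 4 litter pairs differed in it. Ddx3y for replicates 1 to 4 was 3.14, 487, 3.51 and 6.78 in wild-type E13.5 hearts. In knockout hearts it was 268, 9.91, 261 and 557, so that it was high where Xist was low. Genotype and sex, as read from these RNAs, were thus partly aligned at E13.5. Xist exceeded 1000 in 3 of 3 atria of wild-type and 2 of 3 of knockout pups, and in 2 of 3 ventricles of either genotype. The third atrial pair, wild-type and knockout, differed from the other atria in several of the 10 genes, as given with their values. The difference was not limited to these genes. This pair had the most genes above 0 of all 20 libraries, 22819 in wild-type and 23457 in knockout. Their deviations from the group means over all tested genes correlated at 0.638. The part of library quality in the atrial values was not tested. All 8 cardiomyocyte markers were above 0 in every library. In tissue of mixed cells, fewer cells of a type and less RNA per cell cannot be told apart.

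**Figure D1:**
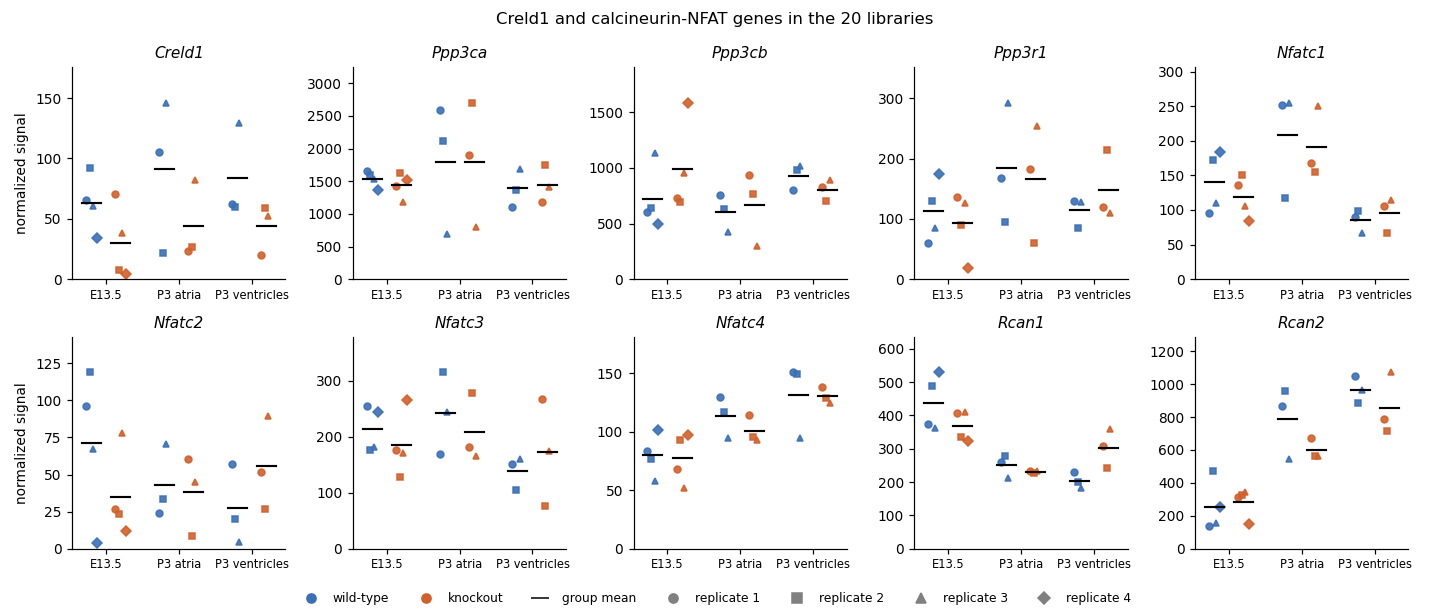
Normalized signal (linear scale) of the 10 genes in each of the 20 libraries, by stage and tissue, with wild-type in blue, knockout in orange, marker shape for the replicate number and a bar for the group mean. The Rcan2 means are lowest at E13.5, the Rcan1 means are highest there, and the Creld1 means are lower in knockout in all 3 settings while single libraries overlap at E13.5 and in atria.

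Creld1, the targeted gene, had the lower mean in the libraries labelled knockout at both stages and in both tissues, but no difference passed the test. The gene spans positions 113483297 to 113493343 of chromosome 6 (mm10, plus strand) and has up to 10 exons in a transcript. Wild-type E13.5 hearts gave 66.0, 92.2, 60.8 and 34.0 for replicates 1 to 4. Hearts labelled knockout at that stage gave 70.9, 7.48, 38.4 and 4.64. Among these, replicate 1 was higher than the littermate control, while replicates 2 and 4 rested on an estimated 7.59 and 3.25 reads.

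Creld1 in wild-type P3 atria was 105, 21.6 and 146, and knockout atria gave 23.1, 26.6 and 82.4. The atrial groups overlapped, and the lowest of the 6 values was that of wild-type replicate 2, on an estimated 9.76 reads. Wild-type P3 ventricles gave 62.2, 59.7 and 129.6, and knockout ventricles 19.9, 59.3 and 51.9. The ventricular groups did not overlap, although both libraries of replicate 2 lay side by side. Of the litter pairs, the knockout library was the lower one in 3 of 4 whole hearts, in 2 of 3 atria and in 3 of 3 ventricles. The whole-heart pairs of replicates 2 and 3 came from the same litter.

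The log2 difference of Creld1 was -1.66 (SE 0.76) at E13.5, where wild-type hearts averaged 63.2 ± 23.8 (SD, n = 4) and knockout hearts 30.3 ± 31.0 (SD, n = 4). In atria it was -0.89 (SE 0.88), from means of 91.0 ± 63.5 (SD, n = 3) and 44.1 ± 33.3 (SD, n = 3). In ventricles it was -0.97 (SE 0.88), from 83.8 ± 39.7 (SD, n = 3) and 43.7 ± 20.9 (SD, n = 3). Each had an adjusted p of 1 by limma. The unadjusted limma p was 0.0406 at E13.5, where the 95% interval ran from -3.24 to -0.078. It was 0.323 in atria and 0.283 in ventricles, where the 95% intervals included 0. Exact two-sided permutation tests of the log2 values gave p = 0.2 at E13.5, where 0.0286 is the smallest value possible, and p = 0.4 in atria and 0.1 in ventricles, where 0.1 is the smallest. Like those tests, an exact permutation within stage over the 14 animals as labelled ignored the litter pairs. With the tissues of a pup averaged, it gave a difference of -1.35. The two-sided p of this permutation was 0.0529, where 0.00143 is the smallest. This test was chosen after the values had been seen. It averaged the atria and ventricles labelled wild-type pup 2, which differed in Xist and Ddx3y. Without E13.5 knockout replicate 1 the E13.5 difference was -2.30, and without knockout replicate 4 it was -1.07. In atria it was -1.71 without wild-type replicate 2 and -0.36 without wild-type replicate 3, and in ventricles it was -0.49 without knockout replicate 1. With log2 Xist as a covariate the differences were -1.63, -0.85 and -0.96 at E13.5, in atria and in ventricles, and none was called. Every direction of a genotype difference given here rests on these labels, including those of E13.5 knockout replicate 1 and of knockout pup 2.

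**Figure D2:**
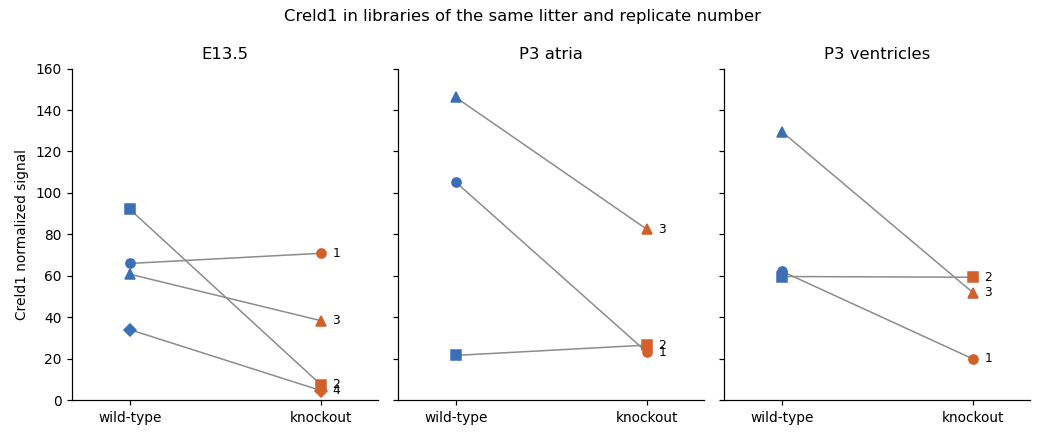
Creld1 normalized signal in wild-type (blue) and knockout (orange) libraries, with a line joining the libraries of the same litter and replicate number (number at the right end). The line of replicate 1 at E13.5 and that of replicate 2 in atria rise slightly, and that of replicate 2 in ventricles is nearly flat.

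Its paralog Creld2, known as a gene of endoplasmic reticulum stress, averaged 410 ± 70.5 (SD, n = 4) in E13.5 hearts of wild-type and 341 ± 107 (SD, n = 4) in those of knockout embryos. Its log2 differences were -0.32 (SE 0.30) at E13.5, 0.74 (SE 0.35) in atria and 0.56 (SE 0.35) in ventricles, with adjusted p-values of 1, 0.929 and 1 by limma. Its groups overlapped in all 3 settings.

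The genes whose log2 profile over the 20 libraries was most like that of Creld1 were Mterf2 (Pearson r = 0.82), Msto1 (r = 0.78) and Psmf1 (r = 0.74), out of 8333 genes of at least median level. The 20 libraries are not independent points, since each pup gave a pair and the values share library depth. Among the other 9 genes, Creld1 was most like Ppp3r1 (r = 0.63 over 20 libraries, and 0.64 after the group means were removed).

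None of the calcineurin subunit genes was called between genotypes. Ppp3ca and Ppp3cb encode catalytic subunits, and Ppp3r1 encodes the regulatory B subunit that binds calcium. Ppp3ca (chromosome 3, 136670124 to 136937727, plus strand) was 1359 to 1649 in wild-type and 1187 to 1631 in knockout E13.5 hearts, and 1113 to 1756 in P3 ventricles of both genotypes. Its atrial values were 2597, 2121 and 685 for wild-type and 1906, 2702 and 792 for knockout pups, so that the third pair lay far below the other 4 libraries. Its log2 differences between genotypes were -0.10 (SE 0.36) at E13.5, 0.04 (SE 0.42) in atria and 0.06 (SE 0.42) in ventricles. The 95% interval in ventricles ran from -0.81 to 0.93.

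Ppp3cb (chromosome 14, 20499364 to 20546573, minus strand) differed by 0.46 (SE 0.35) at E13.5, where the knockout range of 691 to 1587 overlapped the wild-type range of 493 to 1138. The value of 1587 was that of knockout replicate 4 alone, and without it the difference was 0.20. With the Xist covariate it was 0.32. It differed by 0.03 (SE 0.40) in atria and -0.21 (SE 0.40) in ventricles. In wild-type pups its ventricles held 800.0 to 1014 and its atria 419.99 to 753, without overlap, a difference of 0.66 (SE 0.42) with a limma adjusted p of 0.649, not called. As a share of the catalytic signal per kilobase of exon, Ppp3ca made up 66.2 ± 7.89% (SD, n = 4) in wild-type E13.5 hearts, 69.7 ± 9.22% (SD, n = 3) in atria and 56.6 ± 2.48% (SD, n = 3) in ventricles. Ppp3ca thus gave the larger part of the summed mRNA of these catalytic subunits in each wild-type group.

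Ppp3r1 (chromosome 11, 17159263 to 17200375, plus strand) was the most variable of the subunits. Its atrial values were 168, 94.0 and 292 for wild-type and 183, 60.2 and 253 for knockout pups, and here the third pair was the highest. Among the E13.5 knockouts it was 137, 90.5, 126 and 18.9, and replicate 4, the library lowest in Creld1 as well, was the lowest of all 20 libraries. Its log2 differences between genotypes were -0.48 (SE 0.57), -0.24 (SE 0.66) and 0.33 (SE 0.66) at E13.5, in atria and in ventricles. Exons of Ppp3r1 overlap those of Wdr92 on the same strand, so reads of these genes may not have been told apart.

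None of the NFAT genes was called between genotypes. Nfatc1, the NFAT of the endocardium that valve formation needs, spans positions 80606205 to 80713071 of chromosome 18 (minus strand). E13.5 hearts held 95.9, 172, 109.8 and 184 when wild-type, and 136, 150.2, 105 and 84.8 when knockout. Atria held 252, 118 and 255 when wild-type, and 168, 154 and 251 when knockout. Ventricles held 89.2, 99.0 and 67.2 when wild-type, and 106, 66.8 and 114 when knockout. The genotypes overlapped in all 3 settings, with log2 differences of -0.22 (SE 0.35), -0.07 (SE 0.41) and 0.15 (SE 0.41).

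In wild-type pups Nfatc1 was lower in ventricles than in atria, without overlap, by a log2 difference of -1.21 (SE 0.45). The unadjusted p was 0.0246 and the adjusted p 0.441 by limma, so the gene was not called. All 9 endothelial and endocardial markers were above 0 in every library of these groups, and their summed signal was 4632 to 5051 in wild-type atria and 3728 to 4158 in wild-type ventricles. Nfatc1 signal equalled 4.26 ± 1.49% (SD, n = 3) of that sum in wild-type atria and 2.18 ± 0.49% (SD, n = 3) in wild-type ventricles; the part of the endothelial share in the difference was not tested. Across the 20 libraries the profiles most like Nfatc1 were those of Gpx3 (r = 0.81), Plscr3 (r = 0.80) and Tbx5 (r = 0.80), among the same 8333 genes.

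Nfatc2 (chromosome 2, 168476410 to 168601657, minus strand) was the lowest of the 10 genes per kilobase in all 6 groups by the mean. It ranged from 3.63 to 119 over the 20 libraries, and in wild-type ventricle replicate 3 it rested on an estimated 1.99 reads. Its log2 differences between genotypes were -0.60 (SE 0.95), -0.40 (SE 1.10) and 1.45 (SE 1.10), with 95% intervals that in ventricles ran from -0.84 to 3.73. Nfatc3 (chromosome 8, 106058840 to 106130537, plus strand) was 76.6 to 315 over the 20 libraries. In wild-type pups it was 105 to 161 in ventricles and 169.7 to 315 in atria, without overlap, a difference of -0.78 (SE 0.53, limma adjusted p = 0.672), which was -0.38 without the libraries of pups 2 and -0.14 with the Xist covariate. Its exons overlap those of Esrp2 on the opposite strand, whose mean signal was 5.66. Nfatc4 (chromosome 14, 55823144 to 55833943, plus strand) was 52.1 to 151 over the 20 libraries. Its mean was 80.1 ± 18.1 (SD, n = 4) in wild-type E13.5 hearts, 114 ± 17.9 (SD, n = 3) in atria and 132 ± 31.9 (SD, n = 3) in ventricles, and the ventricle difference of 0.71 (SE 0.35) from E13.5 was not called (limma adjusted p = 0.304).

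**Figure D3:**
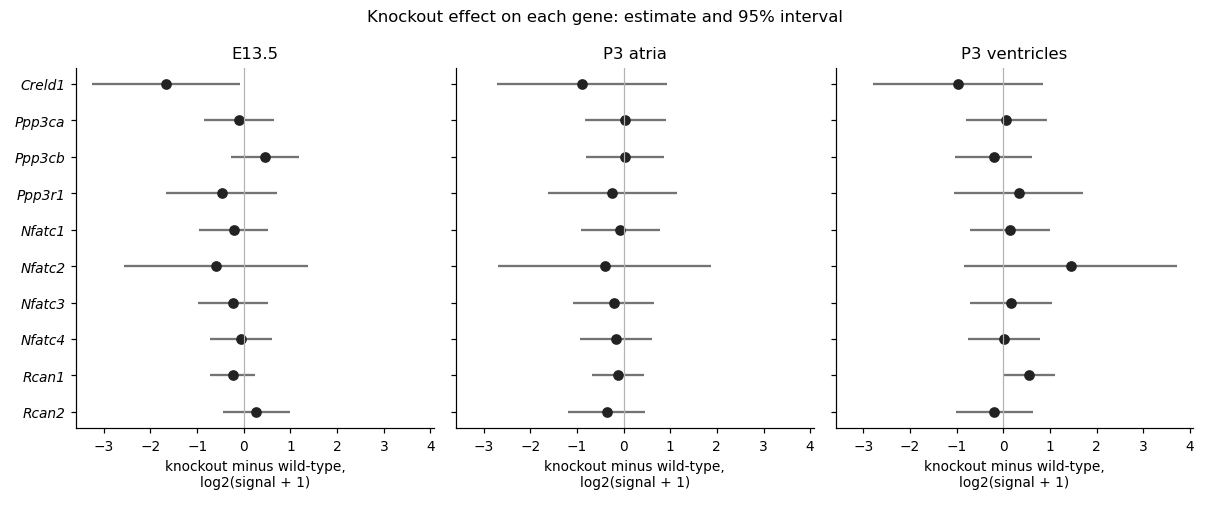
Knockout minus wild-type difference in log2(signal + 1) for each of the 10 genes in E13.5 hearts, P3 atria and P3 ventricles, with points for the estimate and bars for the 95% interval. The Creld1 estimates lie left of 0 in all 3 panels with wide bars, and the Nfatc2 bars are the widest of the other genes.

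Of the 10 genes, 0 were called between genotypes in any of the 3 settings. In whole hearts 0% of all genes were called (4.12% had an unadjusted p under 0.05), in atria 0.0276% (5.32%) and in ventricles 0% (3.90%). At an unadjusted p under 0.05 the count of the 10 genes was 1 at E13.5, which was Creld1, and 0 in atria and 0 in ventricles. The median log2 difference of the 10 was -0.22 at E13.5, -0.19 in atria and 0.10 in ventricles, against 0.01, 0 and -0.01 over all genes. In ventricles the genotypes did not overlap for 2 of the 10, Creld1 lower and Rcan1 higher, where 10.5% of all genes did not overlap. At E13.5 and in atria 0 of the 10 were apart, where 2.54% and 7.91% of all genes were. The difference of the genotype effects between ventricles and atria, and between ventricles and E13.5 hearts, was called for 0 of the 10 and for 0% of all genes. At an unadjusted p under 0.05 the count of the 10 was 0 for the first, against 2.59% of all genes, and 1 (Rcan1) for the second, against 4.02%.

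Rcan1 and Rcan2, which encode small proteins that bind calcineurin and restrain it, changed in opposite directions between wild-type E13.5 hearts and P3 ventricles. Rcan1 spans positions 92391953 to 92470867 of chromosome 16 (minus strand) and is itself a known NFAT target through an internal start site. The RefSeq promoter table of GRCm38.p6 held 13 windows for 8 of the 10 genes, among them a distal and an internal start of Rcan1. These are shown because the deposited table gives 1 value per gene and so sums transcripts from these and other starts. Other annotated Rcan1 transcripts begin elsewhere, for example at 92470867 and 92458475, and no window is shown for those. Each window holds the 250 bases before the start site, 5′ to 3′ on the minus strand, with the core NFAT motif GGAAA, searched on both strands (TTTCC on the other), in capitals.

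Rcan1 distal start, chr16:92466170-92466419: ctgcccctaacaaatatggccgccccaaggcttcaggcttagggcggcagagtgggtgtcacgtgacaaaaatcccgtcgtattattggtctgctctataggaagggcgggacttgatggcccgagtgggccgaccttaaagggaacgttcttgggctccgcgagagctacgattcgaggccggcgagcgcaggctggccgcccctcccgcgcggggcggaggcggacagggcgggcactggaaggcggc
Rcan1 internal start, chr16:92400079-92400328: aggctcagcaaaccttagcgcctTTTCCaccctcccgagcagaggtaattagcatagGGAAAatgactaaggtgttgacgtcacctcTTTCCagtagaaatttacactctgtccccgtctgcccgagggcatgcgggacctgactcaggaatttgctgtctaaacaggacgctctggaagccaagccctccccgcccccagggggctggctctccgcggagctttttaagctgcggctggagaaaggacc

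The internal window held 3 matches, at 227, 193 and 163 bases before the start, and the distal window held 0. At least 1 match was present in 55.6% of all 32851 windows of this length and at least 3 in 6.39%. The windows of Ppp3cb and Nfatc4 and 1 of the Nfatc2 windows also held 3, and that of Creld1 held 1. The guanine and cytosine content was 64.8% in the distal and 56.4% in the internal Rcan1 window, against a median of 52.4% over all windows.

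Rcan1 was 374, 488, 363 and 529.6 in wild-type E13.5 hearts, 261, 277 and 214 in wild-type atria and 229.7, 199 and 183 in wild-type ventricles. All E13.5 values lay above all P3 values. The wild-type means were 439 ± 83.0 (SD, n = 4), 250.3 ± 32.8 (SD, n = 3) and 204 ± 23.7 (SD, n = 3). Ventricles minus E13.5 hearts gave a log2 difference of -1.09 (SE 0.25, limma adjusted p = 0.0118). The call was lost without wild-type ventricle replicate 2 (-1.07, adjusted p = 0.0522) or replicate 3 (-1.01, adjusted p = 0.0660), and without the pair prepared in 2018 at E13.5 (-0.99, adjusted p = 0.0501). Atria minus E13.5 hearts gave -0.80 (SE 0.25), which was not called (adjusted p = 0.0674).

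Rcan2 (chromosome 17, 43801351 to 44039516, plus strand) was 138, 475, 154 and 253 in wild-type E13.5 hearts. In wild-type atria it was 867, 958 and 543, and in wild-type ventricles 1053, 887 and 962. Here all P3 values lay above all E13.5 values. The means were 255 ± 155 (SD, n = 4), 789 ± 218 (SD, n = 3) and 967 ± 82.9 (SD, n = 3). Ventricles minus E13.5 hearts gave 2.10 (SE 0.37, limma adjusted p = 0.00146), and this was called in 20 of 20 fits that left out 1 library. Here and below, such fits include those without a library of another group. These leave a difference from E13.5 hearts unchanged and act on the shared spread and the genes tested. Atria minus E13.5 hearts gave 1.76 (SE 0.37, limma adjusted p = 0.00691), which was lost without the libraries of both pups 2 (1.60, adjusted p = 0.0565). The atrial and ventricular comparisons use the same 4 E13.5 libraries.

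In these wild-type comparisons 2 of the 10 genes were called in ventricles (1 higher and 1 lower), where 5.09% of all genes were (3.35% higher and 1.74% lower). In atria 1 of the 10 was called, higher, where 5.50% of all genes were called and 3.11% were higher. For 3 of the 10 the ventricle and E13.5 groups did not overlap (Rcan2 higher, Rcan1 and Nfatc3 lower), against 18.7% of all genes, and for 2 of the 10 in atria (Rcan2 higher, Rcan1 lower), against 14.8%. Stage and the dissection of chambers rather than whole hearts cannot be told apart. Preparation date was largely aligned with both, since all P3 libraries were prepared in 2018 and 3 of the 4 E13.5 pairs in 2016. Wild-type E13.5 replicate 4, prepared in 2018, held Rcan1 at 529.6 and Rcan2 at 253. The part of the date in the stage differences was not tested. The summed signal of the 8 cardiomyocyte markers was 119908 to 136957 in wild-type E13.5 hearts, 108577 to 184827 in atria and 262634 to 305443 in ventricles. That of the 6 erythroid markers was 38453 to 138139, 15580 to 18799 and 10355 to 25485. The 8 fibroblast and valve markers summed to 22204 to 27456, 82449 to 88956 and 51385 to 55777 in the same order, and the 5 smooth muscle and pericyte markers to 202 to 647, 775 to 2593 and 1859.9 to 2502. No marker of these 4 lists was at 0 in all libraries of a group, and their part in the Rcan differences was not tested.

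Among the knockouts, Rcan2 rose from 314.5, 326, 347 and 150.3 at E13.5 to 786, 716 and 1073 in ventricles, a log2 difference of 1.64 (SE 0.37, limma adjusted p = 0.0158). This call was lost without E13.5 knockout replicate 4 (1.36, adjusted p = 0.0578) or ventricle knockout replicate 3 (1.47, adjusted p = 0.104). In knockout atria Rcan2 was 673, 566 and 561, a difference of 1.14 (SE 0.37) that was not called (adjusted p = 0.113). Rcan1 was 407, 336, 411 and 324 in knockout E13.5 hearts, 232, 226 and 233 in knockout atria and 308, 241 and 360.0 in knockout ventricles. Its differences from E13.5 were -0.67 (SE 0.25, adjusted p = 0.180) in atria and -0.30 (SE 0.25, adjusted p = 0.690) in ventricles, neither called. Of all genes, 2.74% were called between knockout ventricles and E13.5 hearts (1.79% higher), and 2.80% between knockout atria and E13.5 hearts (1.95% higher). The knockout stage comparisons were added after the wild-type values had been seen.

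Between genotypes, Rcan1 averaged 204 ± 23.7 (SD, n = 3) in ventricles of wild-type pups and 303 ± 59.8 (SD, n = 3) in those of knockout pups, with the knockout library higher in 3 of 3 pairs and no overlap. The log2 difference was 0.55 (SE 0.27), with an unadjusted p of 0.0513 and an adjusted p of 1 by limma, so it was not called. In atria it was -0.11 (SE 0.27) and at E13.5 -0.24 (SE 0.23). The difference of the genotype effects between ventricles and E13.5 hearts was 0.79 (SE 0.35, unadjusted p = 0.0370, limma adjusted p = 1), and between ventricles and atria 0.66 (SE 0.45, adjusted p = 1). The summed signal of the 9 endothelial and endocardial markers was 3728 to 4158 in wild-type and 2936 to 3675 in knockout ventricles, and its part in the Rcan1 values was not tested. The Rcan2 differences between genotypes were 0.26 (SE 0.34) at E13.5, -0.36 (SE 0.40) in atria and -0.19 (SE 0.40) in ventricles. Leaving out 1 library gave 0.031 to 0.62 at E13.5, -0.61 to -0.20 in atria and -0.36 to -0.072 in ventricles, and none of the Rcan2 differences was called.

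Per kilobase of exon, the ratio of Rcan2 to Rcan1 was 0.396 ± 0.196 (SD, n = 4) for wild-type E13.5 hearts and 0.538 ± 0.151 (SD, n = 4) for knockout ones. It was 2.19 ± 0.351 (SD, n = 3) and 1.84 ± 0.185 (SD, n = 3) in atria. Wild-type ventricles had a ratio of 3.36 ± 0.306 (SD, n = 3) and knockout ventricles one of 2.001 ± 0.172 (SD, n = 3). Rcan1 mRNA thus exceeded Rcan2 mRNA in every E13.5 library, and Rcan2 exceeded Rcan1 in every P3 library. The wild-type ventricles (3.14 to 3.71) and knockout ventricles (1.80 to 2.10) did not overlap, and this ratio, examined after the values had been seen, was not tested. Over the 20 libraries the 2 genes were negatively correlated (Pearson r = -0.59), and after removal of the group means positively (r = 0.73), so that within a group libraries high in 1 gene tended to be high in the other. These are descriptions over libraries that share pups, litters and depth. The profiles most like that of Rcan1 were those of Zwint (r = 0.91), Gyg (r = 0.90) and Dnmt3a (r = 0.88).

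**Figure D4:**
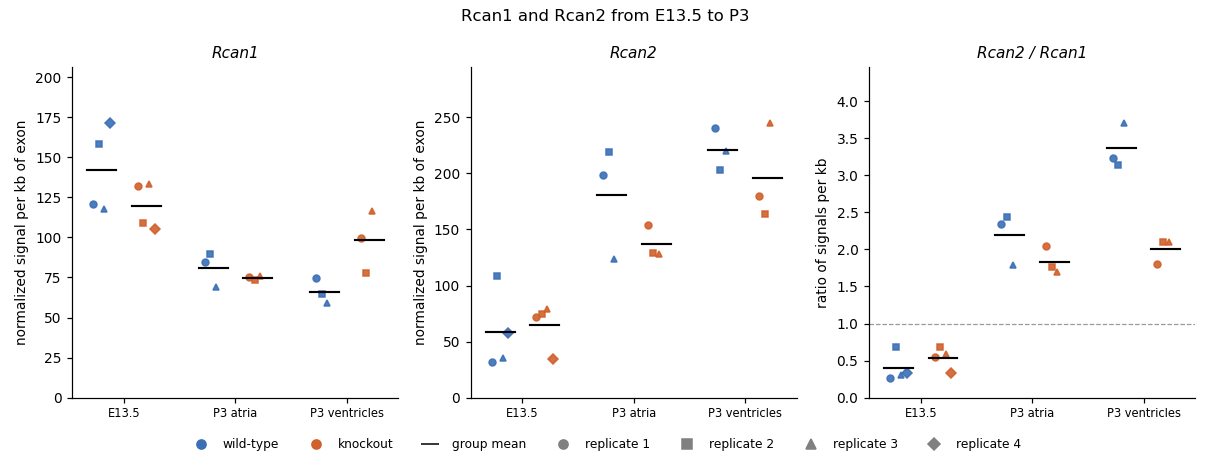
Rcan1 and Rcan2 normalized signal per kilobase of exon and their ratio in each library, by stage and tissue, with wild-type in blue, knockout in orange, bars for group means and a dashed line at a ratio of 1. All E13.5 ratios lie under 1 and all P3 ratios above it, and the ventricular ratios are 3.14 to 3.71 in wild-type and 1.80 to 2.10 in knockout.

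Set on 1 scale per kilobase of exon, the wild-type E13.5 hearts held most of Ppp3ca (154 ± 12.6, SD, n = 4), followed by Rcan1 (142 ± 26.9, SD, n = 4), Ppp3cb (81.5 ± 32.6, SD, n = 4) and Rcan2 (58.3 ± 35.4, SD, n = 4). Each of the 10 overlapped its neighbour in that order. In wild-type ventricles Rcan2 came first (221 ± 18.95, SD, n = 3) and did not overlap Ppp3ca (139 ± 28.7, SD, n = 3). Ppp3cb (106 ± 13.1, SD, n = 3), Rcan1 (66.1 ± 7.70, SD, n = 3) and Ppp3r1 (35.4 ± 7.70, SD, n = 3) followed, and Ppp3cb did not overlap Rcan1 nor Rcan1 Ppp3r1. Creld1 stood at 19.7 ± 9.33 (SD, n = 3) there, between Nfatc4 (22.7 ± 5.49, SD, n = 3) and Nfatc3 (11.9 ± 2.57, SD, n = 3). In all 6 groups the catalytic subunit and regulator genes lay above the NFAT genes and Creld1 by their means.

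Of 5 further gene lists around the pathway, a single gene was called between genotypes. The lists, which were chosen with earlier results of these data known, held 11 tested genes of other calcineurin subunits, anchors and inhibitors, 18 of calmodulin and calcium entry or release, 10 NFAT kinases, 9 NFAT partners and 7 NFAT-responsive cardiac genes, with Trpc6 in 2 of them. Nppb, which encodes B-type natriuretic peptide, was higher in knockout atria by 3.44 (SE 0.49, limma adjusted p = 0.00656), where it averaged 3573 ± 1368 (SD, n = 3) against 360.4 ± 235 (SD, n = 3) in wild-type atria, and higher in 3 of 3 pairs. The call was lost without wild-type atrium replicate 1 or knockout atrium replicate 2, with an adjusted p of up to 0.0566. It was also lost when atria were fitted alone (adjusted p = 1.00). The summed signal of the 6 erythroid markers was 15580 to 18799 in wild-type and 31044 to 133066 in knockout atria, and that of the 8 fibroblast and valve markers 82449 to 88956 and 61037 to 64078. All 8 fibroblast markers and at least 5 erythroid markers were above 0 in every library of these groups, and their part in the Nppb value was not tested. With the replicate number as a block, which sets each knockout against its littermate, Nppa, encoding the atrial natriuretic peptide, was also called in atria (1.45, limma adjusted p = 0.0447) and in ventricles (2.70, adjusted p = 0.00121), where it was not called without the block (adjusted p = 0.968 and 0.808). It was higher in knockout in 3 of 3 pairs in both tissues. Without the block, leaving out 1 library gave 0.79 (without knockout replicate 3) to 1.98 (without wild-type replicate 3) in atria and 1.87 (without knockout replicate 3) to 3.63 (without knockout replicate 2) in ventricles. With the block 0.166% of all genes were called in atria and 0.0110% in ventricles. The genotype effect on Nppa differed between ventricles and E13.5 hearts by 2.83 (SE 1.01, limma adjusted p = 1), with an adjusted p of 0.0201 with the block, where 0.00552% of all genes were called.

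For the 7 NFAT-responsive genes the median difference between genotypes was 0.0061 at E13.5, 1.45 in atria and 1.00 in ventricles, against 0.01, 0 and -0.01 over all genes. Of the 7, 4, 4 and 6 had the higher value in knockout in that order, against 50.9%, 49.8% and 48.5% of all genes. The 7 were Nppa, Nppb, Myh7, Acta1, Vegfa, Trpc6 and Edn1, and the atrial median was the Nppa difference itself. Trpc6 was low, with means of 4.13 in wild-type and 18.9 in knockout ventricles. This list was chosen with earlier results of these data known, and NFAT activity was not tested. The NFAT partners had a median of 0.0054 at E13.5, -0.68 in atria and -0.12 in ventricles. The medians of the other 3 lists lay between -0.26 and 0.11 in the 3 genotype comparisons.

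Of the 54 different genes of these lists, 7 (13%) were called between wild-type E13.5 hearts and P3 ventricles, against 5.09% of all genes. Myoz2, encoding calsarcin, a protein that tethers calcineurin at the sarcomere, rose by 1.95 (SE 0.29, limma adjusted p = 0.000218), from 577 ± 151 (SD, n = 4) to 2174 ± 193 (SD, n = 3), and was called in 20 of 20 fits that left out 1 library. Ppp3cc, which encodes the remaining catalytic subunit, rose by 2.54 (SE 0.60, adjusted p = 0.0134), from 34.8 ± 19.3 (SD, n = 4) to 180.4 ± 10.3 (SD, n = 3), a call lost without wild-type ventricle replicate 2 or 3 (adjusted p of up to 0.0598). The calcium channel gene Cacna1c (1.01) and the partner Mef2a (0.93) were higher, and the kinase gene Csnk1e (-1.43) and Nppa (-2.69) lower. Of the 20 fits that left out 1 library these were called in 14, 14, 7 and 15, in that order.

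Between wild-type E13.5 hearts and P3 atria 5 of the 54 (9.26%) were called, against 5.50% of all genes. Myh7, encoding the slow myosin heavy chain, fell by 3.05 (SE 0.41, limma adjusted p = 0.000115), and Ppia, encoding the cyclophilin through which cyclosporin acts on calcineurin, fell by 1.59 (SE 0.33, adjusted p = 0.00691). Both were called in 20 of 20 fits that left out 1 library. Nppa (2.52), the partners Fos (3.47) and Mef2a (0.98) were higher, and were called in 9, 16 and 16 of the 20 fits. In wild-type pups Nppa was lower in ventricles than in atria (-5.21, SE 0.54, limma adjusted p = 0.0160), called in 12 of 20 fits. The 20 include fits without an E13.5 library. The comparison within pups uses P3 libraries only, so those fits change just the genes tested. The count of 12 is thus not a measure of how far the call depends on single P3 libraries. Without the libraries of pups 2 Nppa was not called (-4.99, limma adjusted p = 0.559). Of the 10 genes followed here, 0 were called in that comparison, where 0.0883% of all genes were. At an unadjusted p under 0.05 the count of the 10 was 1 (Nfatc1), against 9.87% of all genes. For 3 of the 10 the tissues did not overlap (Ppp3cb higher in ventricles, Nfatc1 and Nfatc3 lower), against 16% of all genes.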

How the data were processed

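RNA of mouse hearts was sequenced with SMART-Seq2, per the labels' protocols, in 20 libraries. The authors deposited 1 table of normalized signal per gene; bcl2fastq 2.2, STAR 2.5.1, DESeq2 and mm10 are named in the submitters' processing notes, and for the counting tool, annotation and scaling the entry is not given in the sources used here. Low values were whole multiples of 1 read (within 0.001 reads) for 45.1% to 64.6% of values per library, so no count test was run, and read numbers here are estimates. All 20 columns were mapped by title, and 0 were left unused.

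Values were analysed as log2(signal + 1) in genes with at least 10 in at least 3 libraries (18125 genes), by limma 3.58.1 in R 4.3.3 with an intensity trend, 1 fit over 6 groups (14 residual and 6.68 prior degrees of freedom) and Benjamini-Hochberg adjustment over all genes. Ventricles and atria of a pup were compared within pups as labelled (4 residual and 4.59 prior degrees of freedom). This included wild-type pup 2, whose 2 libraries differed in Xist and Ddx3y. Group p-values are the model's; the Creld1 permutations are exact. The fit was tested on simulated data. Positions and exon lengths are from GENCODE vM21 (99.8% of IDs matched). Replicate numbers pair samples because the labels give same-numbered samples 1 litter. Deviations of same-numbered libraries correlated at 0.212 to 0.638 in atria, 0.0200 to 0.0658 in ventricles and -0.0159 to 0.0159 at E13.5. Those of differently numbered libraries correlated at -0.411 to 0.225, -0.0617 to 0.0280 and -0.0310 to 0.0248 in the same order. The 2 ranges overlapped in each setting, so the pairing rests on the labels. E13.5 replicates 2 and 3 came from 1 litter.

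The 10 genes and all lists were chosen with earlier results of these data known. Named were the 10 genes, every list gene called between genotypes, the 3 genes most like Creld1, Nfatc1 and Rcan1, and Creld2. Also named were up to 4 called genes with the smallest p from each list in each wild-type comparison. Nppa between genotypes falls outside the rule without the block and was chosen after its values were seen. Alternatives were other pseudocounts (0.5 and 10), no filter, quantile normalization, sample quality weights, Xist as a covariate, each tissue alone, leaving out libraries, the 2016 preparations, and blocks. A called gene of the lists is not reported here.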

Additional observations from a re-analysis of the deposited data

Results flagged for a closer look

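Rcan2 in the E13.5 knockout hearts had 1 library far from the others. Replicate 4 held 150.3, against 314.5 to 347 in the other libraries of the group, and its gap to the nearest value was 0.835 of the group's range, above Dixon's critical value for 4 samples. This was 1 of 20 groups of 4 examined, and chance gives about 1 in 20. The same library was prepared in 2018, unlike the other E13.5 knockout libraries.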

How the results depend on the processing

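Of 72 differences of the 10 genes, 4 were called, and none of these reversed under any alternative run. Another 24 reversed at least once (98 of 2262 values), and none of those passed the test as reported. The 72 cover all 10 genes in the genotype comparisons and the wild-type comparisons. For the differences of genotype effects and the knockout stage comparisons they cover only Creld1, Rcan1 and Rcan2. The remaining differences of the 10 genes are not part of these counts. Where a value changed, the cause was not tested. The replicate block changed no call of the 10 genes (Rcan1, wild-type ventricles minus E13.5, adjusted p = 0.0167) but moved the count of all genes called in atria between genotypes from 5 to 30; sample quality weights gave 28, each tissue alone 0 and the Xist covariate 2. For wild-type ventricles minus E13.5 hearts the count went from 922 to 1657 with the block, 1587 with weights, 456 without pups 2 and 1656 without the third atrial pair, and for atria minus E13.5 from 997 to 2102 with the block. Quantile normalization moved the median of all genes in wild-type atria minus E13.5 from 0.09 to -0.05. Calls among the 10 genes went to 1 for wild-type ventricles minus E13.5 (without pups 2, with or without E13.5 knockout 1, and with the 2016 preparations alone), to 0 for wild-type atria minus E13.5 (without pups 2, with or without that library), to 0 for knockout ventricles minus E13.5 (the same 3 settings) and to 1 for knockout atria minus E13.5 (weights). Leaving out 1 library gave 1 to 2 and 0 to 1 calls for the ventricle comparisons of wild-type and knockout.

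Reversed knockout minus wild-type differences were, with the 2016 preparations, Ppp3r1 0.41 and Nfatc1 0.083 at E13.5. In atria Ppp3ca was -0.039 (quantile), -0.14 (weights), -0.048 (without the third pair) and -0.12 without pups 2, Ppp3cb -0.015 (quantile), -0.12 (Xist) and -0.089 without pups 2, and Nfatc2 0.32 with weights and 0.32 without pups 2. In ventricles Ppp3ca was -0.087 and Ppp3r1 -0.17 without pups 2, and Nfatc4 -0.022 with weights. For wild-type ventricles minus atria Creld1 was -0.86 (Xist) and -0.46 (without pups 2), Ppp3ca 0.089 and 0.037, and Nfatc2 0.26 (without the third pair). For wild-type atria minus E13.5 Creld1 was -0.042 (2016) and -0.31 (without the third pair), Ppp3ca -0.20 (without pups 2) and -0.034 (2016), Ppp3cb 0.035 (weights) and 0.019 (without the third pair), Nfatc2 0.19 (Xist) and Nfatc3 -0.052 (without pups 2). For the genotype effect, ventricles minus atria, Creld1 was 0.0057 (weights), 1.12 (Xist), 0.028 (without pups 2) and 0.12 (without the third pair), and Rcan2 -0.23 (Xist). Values without pups 2 were the same with E13.5 knockout 1 also left out.

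Leaving out 1 library gave, between genotypes at E13.5, Ppp3r1 -0.77 to 0.16 and Nfatc4 -0.20 to 0.12. In atria it gave Ppp3ca -0.55 to 0.54, Ppp3cb -0.29 to 0.54, Ppp3r1 -0.66 to 0.37, Nfatc1 -0.44 to 0.12 and Nfatc2 -0.92 to 0.42. In ventricles it gave Ppp3ca -0.088 to 0.21, Nfatc1 -0.013 to 0.38, Nfatc3 -0.24 to 0.66 and Nfatc4 -0.20 to 0.13. For wild-type ventricles minus atria it gave Creld1 -0.46 to 0.63, Ppp3ca -0.93 to 0.33 and Nfatc2 -2.22 to 0.26, and for ventricles minus E13.5 Ppp3r1 -0.14 to 0.37. For wild-type atria minus E13.5 it gave Creld1 -0.31 to 1.04, Ppp3ca -0.35 to 0.62, Ppp3cb -0.40 to 0.026, Nfatc2 -1.23 to 0.34 and Nfatc3 -0.052 to 0.39. For the genotype effect, ventricles minus atria, it gave Creld1 -0.60 to 0.55 and Rcan2 -0.054 to 0.41. Fits of each tissue alone were run for genotype comparisons, and the replicate block was not run for comparisons within pups. Depth limits Nfatc2 and Creld1 most, at an estimated 1.99 and 3.25 reads in their lowest libraries. The alternatives without the third atrial pair or E13.5 knockout 1 were chosen after seeing the data.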
